A study of Mus musculus with 10 samples.

Results

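Genes of the fibroblast growth factor (FGF) pathway were examined for binding of RBPJ, the DNA-binding factor of Notch signalling, in cultured mouse brain pericytes. The set comprised 55 protein-coding genes of chromosomes 1 to 19, out of 20807 such genes, whose symbols name an FGF ligand (Fgf followed by a number), an FGF receptor (Fgfr), a Sprouty (Spry) or Spred gene, or a dual-specificity phosphatase (Dusp). Chosen by symbol in GENCODE M21, it held 20 FGF ligands, 5 receptor genes, 3 Sprouty, 3 Spred and 22 Dusp genes, plus Fgfr1op and Fgfr1op2, which share the letters of the receptor symbols and encode no receptor. Of the 22 Dusp genes, 9 encode MAP kinase phosphatases and 13 encode atypical members of the family.

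The cells were RD1 cells, which the labels call pericytes of mouse brain. Pericytes are mural cells wrapped around capillaries. The RD1 cells were untreated, and no genotype contrast, time course or stimulus was included. The study's methods describe its cultured brain pericytes as primary cells, passaged before use, from mice homozygous for floxed Rbpj. Those methods do not use the name RD1. The 10 samples were chromatin immunoprecipitations for RBPJ, H3K4me1, H3K4me3 and H3 and an input, with 2 replicates of each. RBPJ positions were analysed here for the 2 RBPJ samples, whereas the histone, H3 and input samples, 8 in all, were not analysed here. Whether RD1 cells carried pericyte markers could not be checked here, since peak positions hold no expression values. The study reports that it examined known markers in its cultured pericytes by RT-qPCR and immunostaining. The lists of the 2 RBPJ samples held the same 11094 peaks, so that they formed 1 consensus list with no spread between replicates, no height and no p-value. The read depth behind the peaks is unknown here, so that the lack of a peak does not mean that RBPJ was absent from a gene.

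FGF ligands bind receptor tyrosine kinases at the cell surface and pass the signal through the adaptor FRS2 and RAS to the MAP kinase ERK. Sprouty and Spred proteins block the step between receptor and kinase cascade, and MAP kinase phosphatases remove the activating phosphates from ERK, JNK or p38, so that many of these genes, switched on by the pathway, restrain it. RBPJ binds a short core element, recruits co-repressors and, once a Notch receptor has been cleaved, forms an activating complex with its intracellular part.

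A peak was assigned to a gene when its centre lay in the gene body or in the gene's regulatory domain. That domain ran from 5 kb upstream to 1 kb downstream of the gene start and was extended on either side to the neighbouring domain, by at most 1 Mb. By this rule 77 of the 11094 peaks were assigned to 38 of the 55 genes (69.1%, exact 95% interval 55.2 to 80.9), against 48.4% of all 20807 genes. The domains were larger than usual, with a median of 111 kb against 86.1 kb over all genes, and their part in the difference was not tested. Promoter peaks, with the centre within 1 kb of a protein-coding transcript start, were found at 22 genes (40%, 27.0 to 54.1), against 28.8% of all genes. The interval for any peak lay above the background, and that for promoter peaks spanned it. The 17 genes without a peak were Fgf3, Fgf4, Fgf5, Fgf12, Fgf15, Fgf17, Fgf21, Fgf22, Fgf23, Fgfr3, Spry1, Spred3, Dusp8, Dusp12, Dusp19, Dusp26 and Dusp27. Intervals cover counting error only, and genes that share a neighbourhood are not independent.

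Sequences are shown for selected peaks, to give the RBPJ core elements that the results refer to in their context. Each line gives the 101 bp around 1 core element, 5′ to 3′, in the GRCm38 genome (RefSeq GRCm38.p6). Capitals mark the central element, GTGGGAA where the base before it was G and TGGGAA otherwise, and further copies stay in lower case. The first set is from Dusp6 and Dusp5, whose 7 peaks each held at least 1 element, and 6 of the 7 held the longer form.
Dusp6 peak in Poc1b, chr10:99172092-99172192, minus strand: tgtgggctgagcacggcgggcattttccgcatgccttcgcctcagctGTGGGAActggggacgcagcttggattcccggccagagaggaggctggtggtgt
Dusp6 upstream peak, chr10:99237382-99237482, plus strand: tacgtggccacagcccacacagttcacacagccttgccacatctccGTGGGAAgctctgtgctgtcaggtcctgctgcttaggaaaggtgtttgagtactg
Dusp6 start peak, chr10:99261153-99261253, plus strand: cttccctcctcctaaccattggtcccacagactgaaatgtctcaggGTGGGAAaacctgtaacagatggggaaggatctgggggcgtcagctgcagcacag
Dusp6 downstream peak, chr10:99297919-99298019, plus strand: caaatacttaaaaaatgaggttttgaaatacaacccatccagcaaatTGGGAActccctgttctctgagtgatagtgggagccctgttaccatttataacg
Dusp5 upstream peak, chr19:53412632-53412732, plus strand: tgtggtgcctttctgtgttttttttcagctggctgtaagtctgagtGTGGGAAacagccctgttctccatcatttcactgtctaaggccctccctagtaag
Dusp5 start peak, chr19:53530257-53530357, minus strand: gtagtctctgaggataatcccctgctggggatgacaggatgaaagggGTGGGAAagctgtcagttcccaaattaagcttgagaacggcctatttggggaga
Dusp5 downstream peak, chr19:53557554-53557654, plus strand: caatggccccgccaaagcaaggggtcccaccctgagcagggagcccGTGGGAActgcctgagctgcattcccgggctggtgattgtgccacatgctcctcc

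The second set is from selected peaks of other feedback genes, the receptors and 2 ligands, to show core elements in peaks that do not cover a GENCODE start. The Fgf11 peak nevertheless covers the RefSeq start of that gene. The line named a pair spans 46 bp and shows 2 related elements that face each other, TGNGAA and TTCNCA with 14 bp between them, with both in capitals. Of the Fgfr1 peaks shown, each held 1 copy of TGGGAA and neither held GTGGGAA.
Dusp4 upstream peak, chr8:34591508-34591608, minus strand: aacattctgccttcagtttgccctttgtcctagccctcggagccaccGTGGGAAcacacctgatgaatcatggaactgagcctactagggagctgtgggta
Dusp4 pair, chr8:34946707-34946752, plus strand: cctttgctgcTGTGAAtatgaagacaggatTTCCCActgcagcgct
Dusp1 peak in Ergic1, chr17:26605857-26605957, plus strand: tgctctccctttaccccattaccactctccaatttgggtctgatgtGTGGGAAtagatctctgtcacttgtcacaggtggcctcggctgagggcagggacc
Spry2 distal peak, chr14:105360725-105360825, minus strand: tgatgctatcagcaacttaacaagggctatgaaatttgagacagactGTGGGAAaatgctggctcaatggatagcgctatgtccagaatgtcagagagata
Spry2 second distal peak, chr14:105397474-105397574, minus strand: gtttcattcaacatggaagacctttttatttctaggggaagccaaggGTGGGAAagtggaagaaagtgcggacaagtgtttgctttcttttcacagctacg
Spred2 upstream peak, chr11:19919673-19919773, minus strand: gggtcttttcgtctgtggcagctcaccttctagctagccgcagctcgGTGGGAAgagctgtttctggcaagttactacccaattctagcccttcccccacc
Fgfr1 distal peak, chr8:25466110-25466210, minus strand: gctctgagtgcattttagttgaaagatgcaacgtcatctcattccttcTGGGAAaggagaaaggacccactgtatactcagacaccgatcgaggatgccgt
Fgfr1 upstream peak, chr8:25484641-25484741, plus strand: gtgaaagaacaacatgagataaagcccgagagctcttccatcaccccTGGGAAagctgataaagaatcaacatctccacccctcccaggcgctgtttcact
Fgfr2 upstream peak, chr7:130289458-130289558, minus strand: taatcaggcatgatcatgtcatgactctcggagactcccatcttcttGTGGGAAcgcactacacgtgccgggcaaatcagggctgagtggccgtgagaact
Fgf7 upstream peak, chr2:125941125-125941225, plus strand: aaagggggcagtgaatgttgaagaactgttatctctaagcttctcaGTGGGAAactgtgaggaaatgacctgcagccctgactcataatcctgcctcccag
Fgf11 upstream peak, chr11:69802988-69803088, plus strand: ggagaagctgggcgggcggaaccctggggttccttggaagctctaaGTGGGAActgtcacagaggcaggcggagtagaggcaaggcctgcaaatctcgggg

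**Figure D1:**
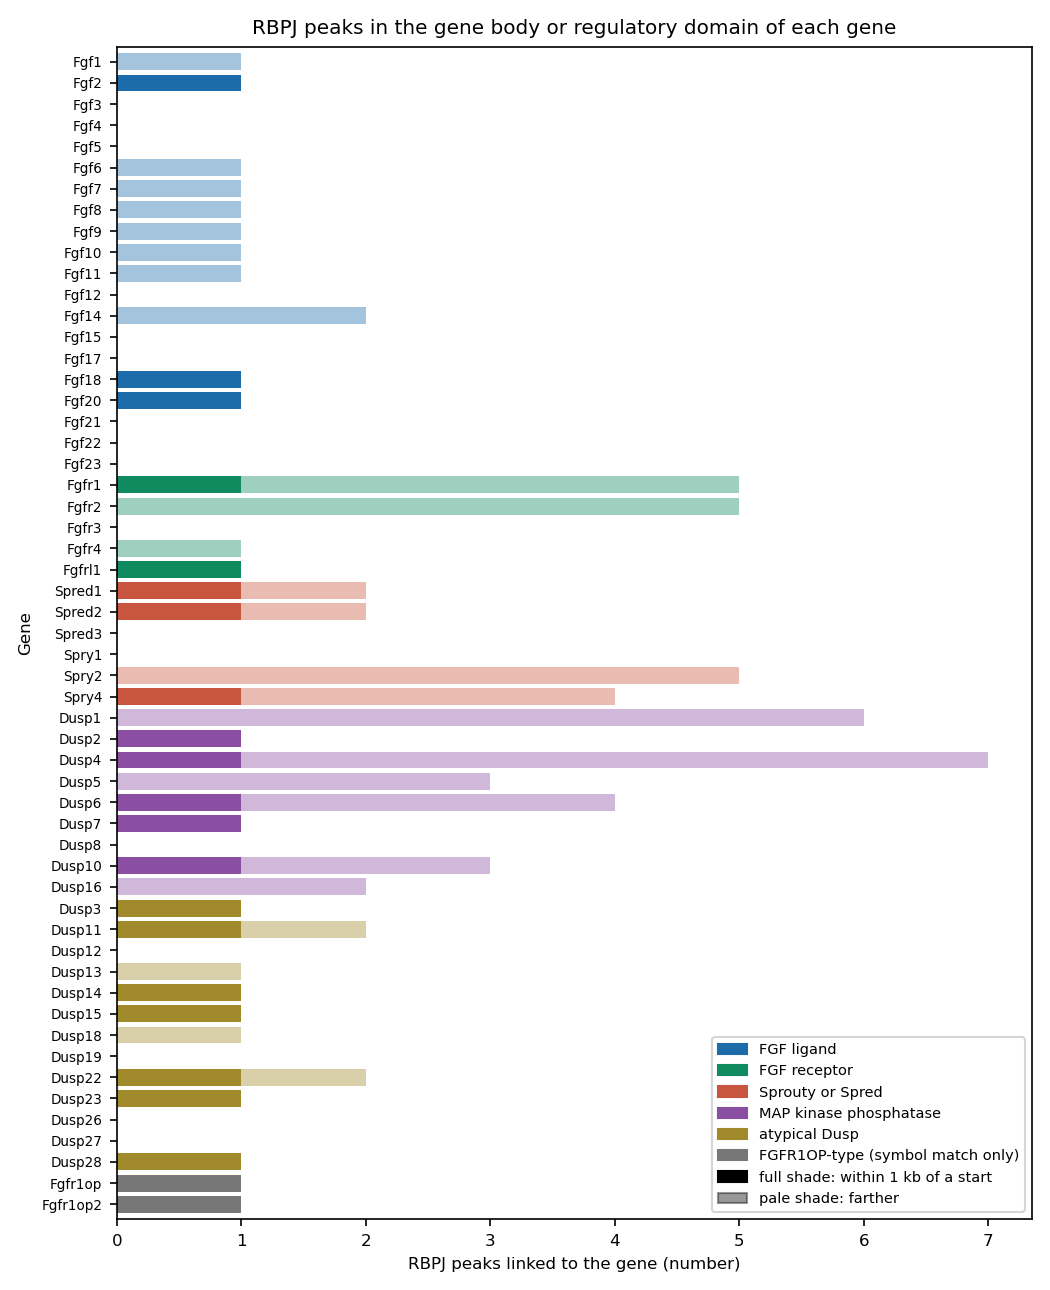
RBPJ peaks assigned to each of the 55 genes (horizontal axis, number of peaks), with genes by role on the vertical axis, in full shade for peaks within 1 kb of a start and pale for those farther away. Dusp4 had the most with 7 peaks, and 17 genes had none.

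MAP kinase phosphatases held the most peaks. Of these 9 genes 8 had a peak (88.9%, 51.8 to 99.7), 27 peaks in all, and 5 had a promoter peak (55.6%, 21.2 to 86.3), against 48.4% and 28.8% of all genes. Together with the Sprouty and Spred genes they form a set of 15 feedback genes, of which 12 had a peak (80.0%, 51.9 to 95.7), 8 had a promoter peak (53.3%, 26.6 to 78.7) and 7 had 3 or more peaks (46.7%). For any peak the intervals of both sets lay above the background of 48.4%, and for promoter peaks they included the 28.8% of all genes. By comparison, 3 or more peaks were found at 8.38% of all genes and at 9 of the 55 (16.4%). The median domain of the feedback genes was 260 kb, 842 kb for Spry2 and 809 kb for Dusp4, so that these genes also offered more sequence in which a peak could be counted.

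Dusp4, which encodes a nuclear phosphatase of ERK and JNK, had 7 peaks. A peak of 2287 bp lay over its start, running from 978 bp upstream to 1308 bp downstream, and held no TGGGAA. A second peak of 1123 bp was centred 8.51 kb downstream of the start, in an intron, also without the element. The other 5 peaks were distal and each held the element. They were centred 282, 216, 208 and 25.1 kb upstream and 140 kb downstream, the last inside the neighbouring gene Tnks. The peak 208 kb upstream was the widest of the 5, at 3664 bp, and held 3 copies. The peak that covered the Dusp4 start thus lacked the core element, whereas those that covered the Dusp6 and Dusp5 starts held several.

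Dusp6, the cytoplasmic phosphatase of ERK, had 4 peaks. The widest, 2443 bp, ran from 2044 bp upstream to 398 bp downstream of the start. It held 5 copies of TGGGAA, of which 4 lay between 2028 and 1349 bp upstream and 1 lay 340 bp downstream. The other peaks were centred 91.0 kb upstream within Poc1b, 25.8 kb upstream and 34.7 kb downstream, were 246 to 460 bp wide and held 1 copy each, all within the central 200 bp. Of the 4, 3 held GTGGGAA.

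Dusp5, a nuclear phosphatase of ERK, had the peak with the most copies among the 77. This peak was 3044 bp wide, reached from 365 bp upstream to 2678 bp downstream of the start and held 6 copies between 681 and 1670 bp downstream, in an intron at its centre. Its centre lay 1156 bp from the start, just outside the limit for a promoter peak, although the peak covered the start. The other 2 peaks, 117 kb upstream and 28.5 kb downstream, held 2 copies and 1 copy. All 3 peaks held GTGGGAA once.

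Dusp1, which encodes an immediate-early nuclear phosphatase of MAP kinases, had 6 peaks. The widest of the 77 peaks, 3688 bp, covered the gene from 268 to 3955 bp downstream of the start and held 1 copy of TGGGAA, 3398 bp downstream. A peak of 319 bp was centred 4053 bp upstream. The other 4 peaks, 210 to 778 bp wide, lay inside the neighbouring gene Ergic1. They were assigned to Dusp1 because GENCODE places its 5′ end 53656 bp upstream of the RefSeq start. Measured from the RefSeq start, those 4 were 76.2 to 97.4 kb upstream, and with the start of the principal transcript Dusp1 kept 2 peaks. The farthest of the 4 held 4 copies of TGGGAA, 2 of them in its central 200 bp, which also held an AP-1 element.

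The other MAP kinase phosphatases had 0 to 3 peaks. Dusp2, a nuclear phosphatase known from immune cells, had 1 peak of 1204 bp centred 202 bp upstream, with copies of TGGGAA 704, 383 and 204 bp upstream. Dusp7, a cytoplasmic phosphatase of ERK, had 1 peak of 888 bp centred 481 bp upstream and without the element. Dusp10, which acts on JNK and p38, had a peak centred 325 bp upstream of a transcript start, 58 bp from the start of 1700056E22Rik, and others 17383 bp downstream and 251541 bp upstream. The peaks of Dusp16, which also acts on JNK and p38, lay 150352 and 120235 bp downstream within Borcs5, the former 42 bp from the Borcs5 start. Dusp8, likewise a phosphatase of JNK and p38, had no peak. It lies on chromosome 7, where peaks were scarce at all genes.

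Sprouty and Spred genes, the inhibitors that act between receptor and kinase cascade, held 13 peaks. In each family 2 of 3 genes had a peak (66.7%, 9.43 to 99.2), an interval that included the 48.4% of all genes. Spry2 had 5 peaks, none centred within 1 kb of its start. The nearest, 1733 bp wide, was centred 1348 bp upstream, ended 482 bp upstream and held no TGGGAA. The others were centred 536, 499 and 164 kb downstream and 197 kb upstream, and each held the element. The 2 farthest, in the window lines for Spry2, also held GTGGGAA. Their nearest protein-coding start was that of Ndfip2, 102017 and 139483 bp away, rather than that of Spry2.

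Spry4 had 4 peaks. A peak of 1339 bp spanned its start, from 875 bp upstream to 463 bp downstream, with 1 copy of TGGGAA 54 bp downstream. Peaks 30850 and 117617 bp downstream held 1 and 2 copies. The fourth, 182378 bp downstream, held none and was centred 68 bp from the start of Ndfip1. Spry1 had no peak within a domain of 298 kb. The Sprouty genes thus ranged from 0 to 5 peaks, and among their peaks near a start only that of Spry4 held a core element.

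Spred1 had a peak centred 164 bp upstream of its start with 1 copy of TGGGAA and another 145614 bp upstream without one. Spred2 had 2 wide peaks near its start. The first, of 1591 bp, ran from 468 bp upstream to 1122 bp downstream and held 3 copies. The second, of 1135 bp, lay 4812 to 3678 bp upstream and also held 3, of which 2 were GTGGGAA. Spred2 was thus the gene with the most core elements within 5 kb of a start, 6, a number that the single peak of Dusp5 matched. Spred3, on chromosome 7, had no peak.

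**Figure D2:**
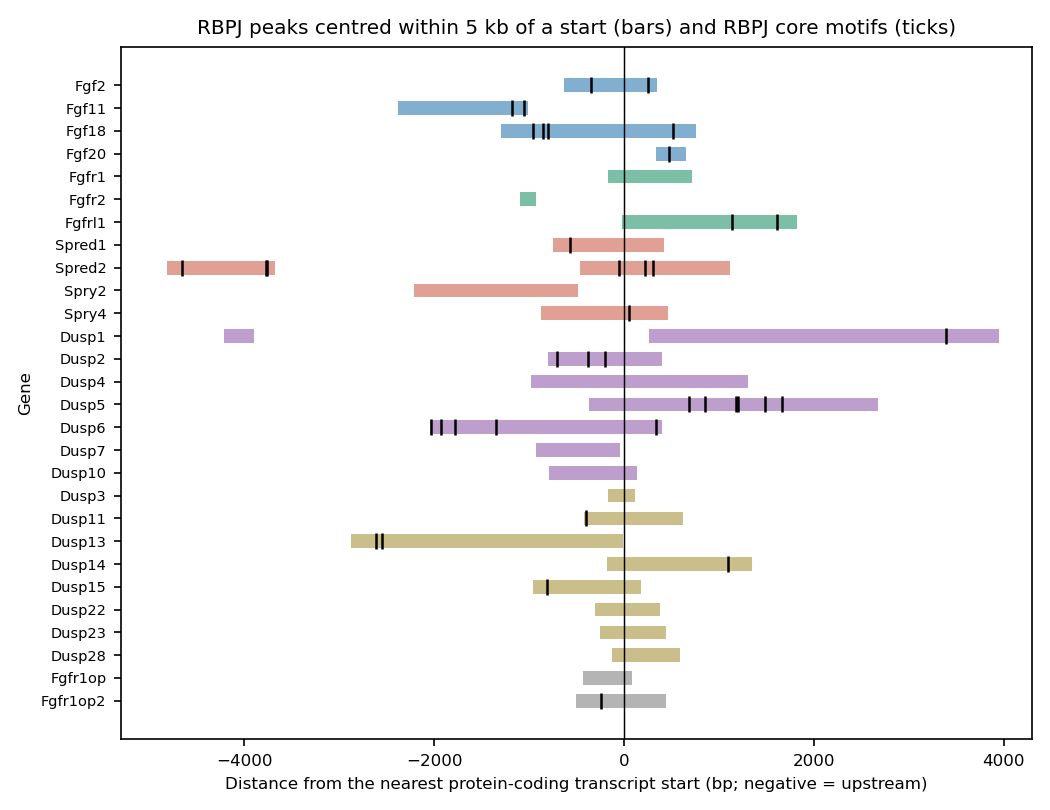
Peaks centred within 5 kb of a protein-coding transcript start (bars) with the RBPJ core elements in them (ticks), by gene and distance from that start in bp, coloured by role. The Dusp5, Dusp6 and Spred2 peaks hold 5 or more elements per gene, and those of Spry2, Dusp4 and Dusp7 hold none.

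Among the 5 receptor genes, 4 had a peak (80.0%, 28.4 to 99.5) and 2 had a promoter peak (40%, 5.27 to 85.3), 12 peaks in all. Both intervals included the shares of all genes, 48.4% and 28.8%. Fgfr1, a receptor expressed in many mesenchymal cells, had 5 peaks. A peak of 889 bp was centred 273 bp downstream of a transcript start that lies close to the RefSeq start, in a UTR, and held no core element. A peak of 208 bp in an intron, 5082 bp from the nearest start, held none either. Upstream, peaks were centred 47580 and 29340 bp from the gene start with 1 copy of TGGGAA each, and 239150 bp from it with none. Core elements at Fgfr1 were thus found only in 2 of the 3 upstream peaks.

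Fgfr2, a receptor with splice forms of different ligand range, had 5 peaks under the assignment rule, but this number depends on 1 transcript. GENCODE extends Fgfr2 over 2960 kb because this transcript starts 2856542 bp from the RefSeq start, whereas the RefSeq gene spans 104 kb. The peak that relates to the RefSeq gene was centred 22.6 kb upstream of its start, was 451 bp wide and held GTGGGAA. The other 4 were 1140 to 2860 kb from the RefSeq start, and 3 of them were centred 25, 168 and 9 bp from the starts of Acadsb, Fam53b and Ctbp2. With principal transcripts Fgfr2 had 2 peaks.

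Fgfrl1, which encodes a receptor-like protein without a kinase domain, had a peak of 1848 bp from 22 bp upstream to 1825 bp downstream of its GENCODE start. Copies of TGGGAA lay 1141 and 1617 bp downstream of that start. The peak was centred 946 bp upstream of the RefSeq start, and with the principal start Fgfrl1 had no promoter peak. Fgfr4 had no peak near its start and 1 peak of 487 bp with a single TGGGAA, 37676 bp downstream and 19466 bp from the start of Nsd1. Fgfr3 had no peak in a domain of 118 kb. The receptors differed among themselves in that Fgfr1 and Fgfrl1 had a peak centred within 1 kb of a start and the other 3 did not, the nearest Fgfr2 peak lying 1013 bp from its GENCODE start.

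FGF ligands had fewer peaks than the feedback genes, and their median domain was smaller, at 104 kb against 260 kb. Of 20 ligands 11 had a peak (55%, 31.5 to 76.9), which is near the background of 48.4%, and 3 had a promoter peak (15.0%, 3.21 to 37.9), against 28.8% of all genes. The intervals of ligands and feedback genes overlapped for both measures, and the difference was not tested. No ligand had 3 or more peaks, although with principal transcripts Fgf14 had 3. When peaks were restricted to the gene body and basal domain, 5 ligands had one (25%), against 36.5% of all genes, and with peaks of at least 500 bp 6 did (30%), against 36.2%. With domains extended by at most 100 kb 8 did (40%), against 45% of all genes. The ligand share thus lay above the background under the full domain and below it in these 3 settings. Without chromosomes 4 and 7 it lay above the background, with 11 of 16 ligands (68.8%) against 55.3% of all genes.

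Fgf2, a ligand of mesenchymal and endothelial cells, had a peak of 979 bp from 629 bp upstream to 349 bp downstream of a start. Both of its core elements, 346 bp upstream and 257 bp downstream, were GTGGGAA. Fgf18, a growth factor of bone and lung, had a peak of 2052 bp that ran from 1293 bp upstream to 758 bp downstream and held 4 copies of TGGGAA. Fgf11 encodes an intracellular family member that binds no FGF receptor. Its peak was centred 1696 bp upstream of the GENCODE start and 609 bp upstream of the RefSeq start, and both its core elements were GTGGGAA, 1181 and 1050 bp upstream. The Fgf20 peak, of 317 bp, lay 493 bp from its GENCODE start but 380 bp from the Micu3 start and 20.9 kb from the RefSeq start of Fgf20.

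The other ligands with a peak had it far from the start. Fgf8, a ligand of the embryonic brain, had its peak at 47093 bp, and Fgf6 at 59698 bp. Fgf1, which binds every FGF receptor, had its peak at 66639 bp, and Fgf7, a mesenchymal ligand of epithelial receptors, had a peak of 2685 bp at 92336 bp with 5 copies of TGGGAA, inside Galk2. Fgf14, which encodes a sodium channel partner, had peaks at 109323 and 200944 bp. Fgf10 and Fgf9, ligands known from lung and limb growth, had peaks at 503248 and 749304 bp. The hormone-like ligands Fgf15, Fgf21 and Fgf23 had none. Of the ligands without a peak, Fgf3, Fgf4, Fgf15 and Fgf21 lie on chromosome 7.

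Atypical Dusp genes encode small phosphatases, many with substrates other than MAP kinases. Of 13 such genes 9 had a peak (69.2%, 38.6 to 90.9) and 7 had a promoter peak (53.8%, 25.1 to 80.8), against 48.4% and 28.8% of all genes. Both intervals included the background, and none of the 13 had more than 2 peaks. Promoter peaks were centred 22 bp from a start at Dusp3, 34 bp at Dusp22, 92 bp at Dusp23, 102 bp at Dusp11, 234 bp at Dusp28, 388 bp at Dusp15 and 585 bp at Dusp14. They were 283 to 1531 bp wide, and TGGGAA was present in those of Dusp11, Dusp14 and Dusp15. With RefSeq starts Dusp3 and Dusp14 had no promoter peak, since the centres lay 2192 and 1484 bp away. Dusp11 and Dusp22 each had a second peak, 24515 and 55847 bp away. The Dusp13 peak was 463 bp from the Samd8 start, and the Dusp18 peak was 1022 bp from that of Slc35e4. The peaks of Fgfr1op and Fgfr1op2 were centred 172 and 27 bp from their starts, the latter also 3 bp from the Ints13 start.

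**Figure D3:**
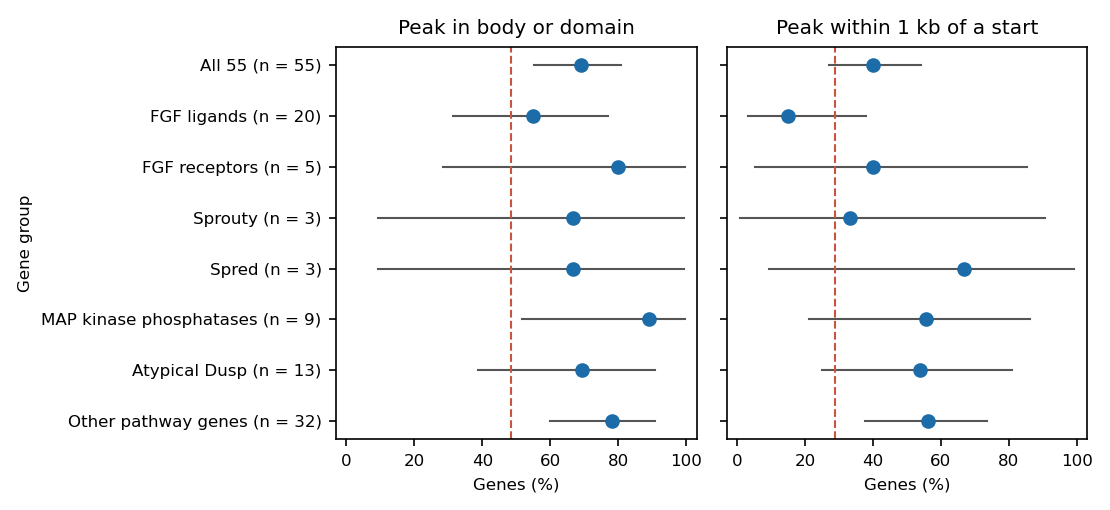
Percent of genes with an assigned peak (left) and with a promoter peak (right), by gene group, with points for the share, lines for exact 95% binomial intervals and dashed lines for all 20807 genes (48.4% and 28.8%). MAP kinase phosphatases stand at 88.9% and FGF ligands at 55% for any peak.

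Chromosome 7 holds 7 of the 55 genes, and 1 of them had a peak (14.3%, 0.361 to 57.9), against 10.7% of all genes there. This was Fgfr2, and the missing peaks of Spred3, Dusp8 and 4 ligands stand beside a total of 146 peaks on that chromosome. Chromosome 4, also poor in peaks, holds no gene of the 55. On the other autosomes 37 of 48 genes had a peak (77.1%, 62.7 to 88.0), against 55.3% of all genes, and promoter peaks were present at 45.8%, against 33.4%. The difference from the background was thus of similar size with and without these chromosomes.

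The 77 peaks were spread over all distances. Of these peaks, 22 (28.6%) were centred within 1 kb of a transcript start of their gene, 8 (10.4%) from 1 to 5 kb, 19 (24.7%) from 5 to 50 kb, 23 (29.9%) from 50 to 500 kb and 5 (6.49%) farther. Within 1 kb of any protein-coding start lay 28 of the 77, against 5490 of all 11094 peaks. The nearest peak lay within 50 kb of the gene start at 31 of the 38 genes, a share that was not computed over all genes. Peak centres fell in introns of the gene 17 times, in UTRs 5 times, in coding exons 4 times and outside the gene 51 times. Relative to the gene start 33 were upstream and 44 downstream.

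Assignment to the named gene was often not unique. For 45 of the 77 peaks the nearest protein-coding start was that of the gene itself, including 19 of the 22 promoter peaks. However, 59 of the 77 were also assigned to at least 1 other gene. In the whole list 6745 of 11094 peaks were assigned to more than 1 gene. Of the 32 peaks nearest to another gene, 9 lay within 1 kb of that gene's start. Of the 40 peaks of feedback genes, 24 were nearest to their own gene, and of the 12 peaks of ligands 6 were.

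**Figure D4:**
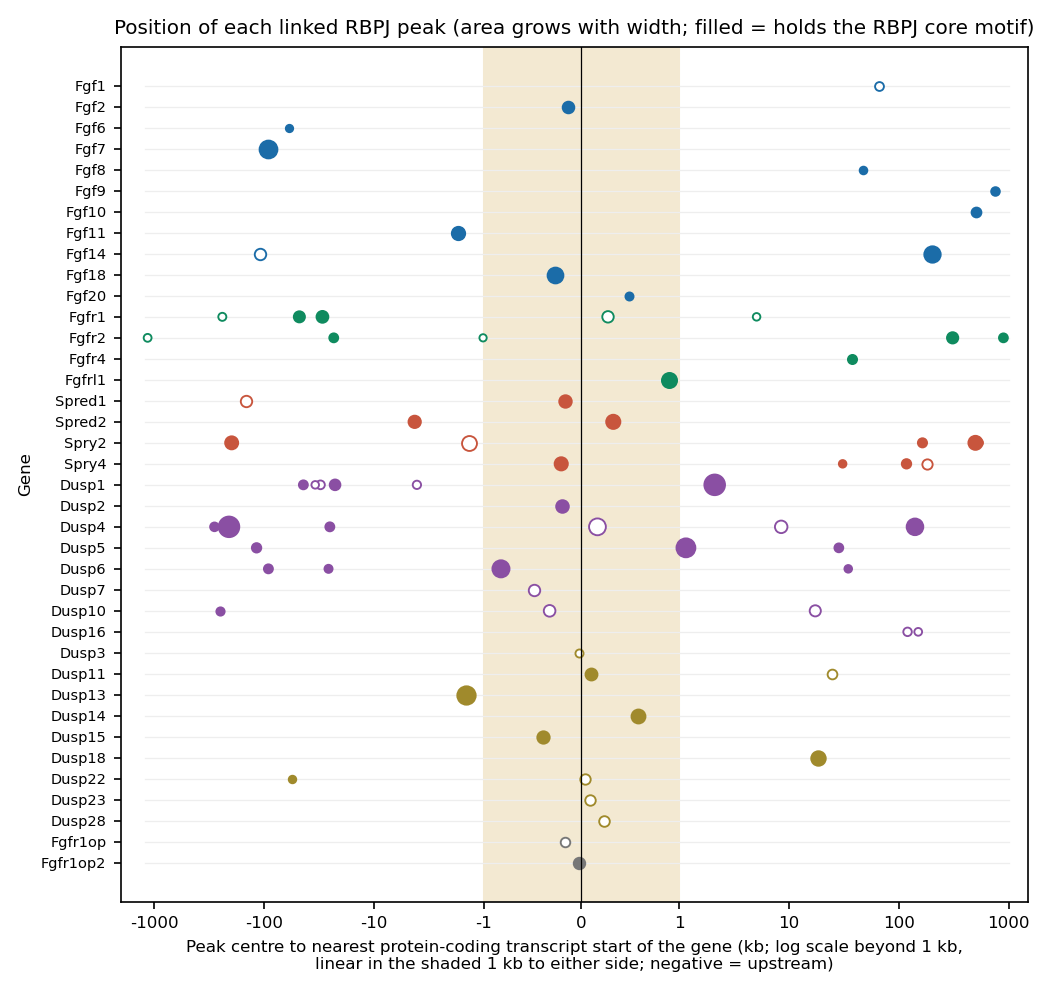
Distance of each of the 77 peak centres from the nearest protein-coding transcript start of its gene in kb, linear within 1 kb of the start and logarithmic beyond, with 1 line per gene and colours for roles. Marker area grows with peak width, and filled markers are peaks that hold the RBPJ core motif (51 of 77).

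In width and base composition the 77 peaks resembled the whole list. Their median width was 697 bp (quartiles 384 and 1204) against 690 bp, and the GC content of the central 200 bp was 56.1% ± 11 (SD over 77 peaks) against 57.1% ± 12.1. TGGGAA was found in the central 200 bp of 23 peaks (29.9%, 20 to 41.4), against 25.8% of all peaks, and anywhere in 51 (66.2%), against 64.9%. GTGGGAA was found in the central 200 bp of 11 peaks (14.3%, 7.35 to 24.1), against 9.28% of all peaks, a value inside the interval. Motif searches covered both strands, and GTGGGAA is counted within TGGGAA.

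Start peaks and distal peaks differed in the same direction as in the whole list. Within 1 kb of any protein-coding start, 3 of 28 peaks held TGGGAA centrally (10.7%, 2.27 to 28.2), against 16.2% of all such peaks, with a GC content of 64.1% and 64.5%. Farther away 20 of 49 did (40.8%, 27.0 to 55.8), against 35.2%, with a GC content of 51.4% and 49.7%. The peaks of feedback genes held it in 14 of 40 cases (35.0%, 20.6 to 51.7), and those of ligands in 4 of 12 (33.3%). The intervals for start and distal peaks included the values for all such peaks, and those for feedback genes and ligands included the 25.8% of the whole list.

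Other elements were searched in the central 200 bp alone, so that copies elsewhere in a peak were not counted. The AP-1 element TGANTCA was found there in 7 of the 77 peaks (9.09%, 3.73 to 17.8), against 10.4% of all peaks. These were at Dusp1 and Dusp4 (2 peaks each), Dusp10, Dusp22 and Fgf1, all over 1 kb from any start, where the share was 14.3% against 17.8%. The CRE element TGACGTCA and the ETS element CCGGAAGT were found in the central 200 bp of none of the 77 (upper bound 4.68%), against 0.739% and 2.07% of all peaks, so that a difference was not detectable with this number of peaks. In whole peaks, facing pairs of the looser elements TGNGAA and TTCNCA were present in 5 cases (6.49%), against 4.4% of all peaks, at Dusp1, Dusp4, Dusp10, Dusp13 and Fgfr2. The gaps were 11, 14, 14, 16 and 18 bp. In the whole list 164 pairs had a gap of 14 bp, and 25 to 59 pairs had each other gap from 11 to 21 bp.

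**Figure D5:**
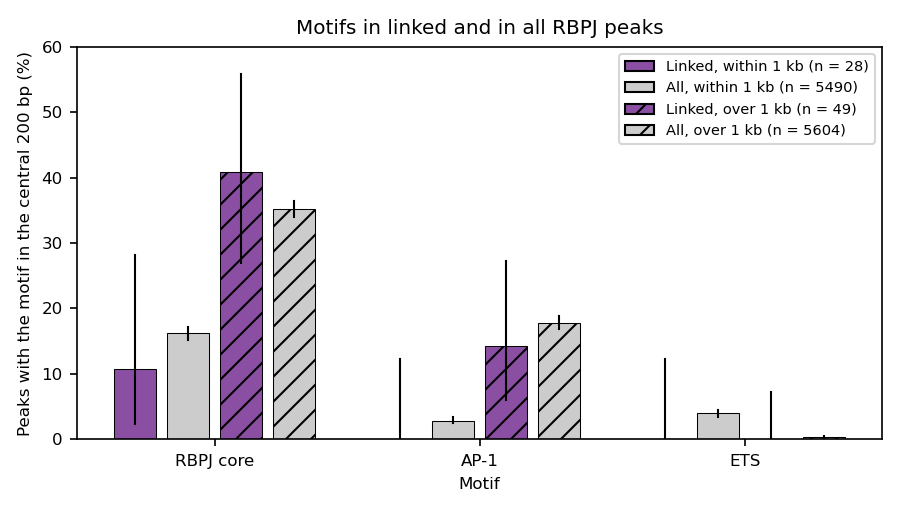
Percent of peaks (vertical axis) that hold the RBPJ core, AP-1 or ETS element in the central 200 bp, for peaks assigned to the 55 genes (purple) and all peaks (grey), within 1 kb of any protein-coding start (plain bars) and farther away (hatched bars). Lines are exact 95% binomial intervals, and the core stands at 10.7% against 16.2% near starts and at 40.8% against 35.2% farther away.

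Promoter sequences of RefSeq (300 bp, GRCm38) were matched for 43 of the 55 genes, 51 promoters in all. Of these, 19 overlapped a peak (37.3%), against 19.9% of 31396 promoters of 25748 genes. That background is wider than the 20807 protein-coding genes used elsewhere, so that these shares are not like for like. Those with a peak had a median GC content of 67.3% and those without 60%, against 64.0% and 50.7% over all promoters. TGGGAA was present in 3 of the 19 (15.8%) and in 8 of the other 32 (25%), so that the share was not higher in promoters with an RBPJ peak. Among all promoters 25.3% held it.

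The listed genes of the pathway outside these families were counted in the same way. Of 32 adaptors, kinases, co-receptors and ETS-family or immediate-early targets on these chromosomes, 25 had a peak (78.1%, 60 to 90.7) and 18 had a promoter peak (56.2%, 37.7 to 73.6), against 48.4% and 28.8% of all genes. This list was chosen with earlier results of these data known, so that its intervals are not independent evidence. Its median domain was 157 kb, against 86.1 kb over all genes, and the part of domain size was not tested. Among others, promoter peaks were present at the adaptors and regulators Frs2, Gab1, Ptpn11 and Cbl, at the RAS gene Nras and the kinase genes Map2k1 and Map2k2, and at the targets Egr1, Ets1, Ets2, Etv4 and Etv5. They were also present at Flrt2, Il17rd and Fgfbp3, which encode membrane or secreted modulators of FGF signalling. Ets1 had 4 peaks, and Egr1 and Ets2 had 3 each. No peak was assigned to Frs3, Flrt3, Fgfbp1, Hras, Braf, Mapk3 and Etv1.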

How the data were processed

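RBPJ chromatin immunoprecipitation sequencing was performed in RD1 cells with 2 replicates, besides histone marks, H3 and input, which were not analysed here. Per the labels and the study's methods, reads were aligned to GRCm38 with Bowtie and duplicates were removed. The authors called peaks in each replicate with MACS2 and PeakRanger, merged calls within 2 kb, kept regions supported by at least 3 overlapping calls and removed blacklisted regions. The deposited peak files give positions in bp with no score or count, and both hold the same 11094 rows. Merging widens peaks, which can lower the share of motifs near their centres.

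Peaks were assigned to GENCODE M21 protein-coding genes by gene body or regulatory domain (5 kb upstream, 1 kb downstream, extended up to 1 Mb), with domains computed from 21938 genes. Sequences came from RefSeq GRCm38.p6. Intervals are exact (Clopper-Pearson, 95%), and no hypothesis test was run. Positions are 1-based. All 55 genes were accounted for, with each receptor, Sprouty, Spred and MAP kinase phosphatase gene and each ligand or atypical Dusp gene with a start peak described. The genes and lists were chosen with earlier results of these data known. Araf, on the X chromosome, left 32 genes on the pathway list, and some of these are not reported here by name. Start differences over 5 kb between GENCODE and RefSeq were found for 8 of 54 matched genes. Software comprised scipy 1.17.1, pysam 0.24.0, matplotlib 3.10.9, pandas 2.3.3 and numpy 2.4.6 under Python 3.11.15, and the code was tested on simulated data. Alternatives varied the domain, peak position, width, start set, motif and chromosomes.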

Additional observations from a re-analysis of the deposited data

How the results depend on the processing

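Of 83 values under 19 settings, 73 stayed within the limits of the main value and 10 moved. Limits were a factor of 1.5 for counts and 487 to 900 bp for the median width. For the share of peaks with TGGGAA they were 20 to 41.4%. A fall from 38 to 29 genes with a peak thus counted as stayed. Counts of 38 of 55 and 12 of 15 genes could not rise past the factor. The 73 also include every value with either replicate left out, which could not change because both lists hold the same peaks. With the basal domain and gene body alone, 5 FGF ligands had a peak (25%, against 36.5% of all genes), 38 peaks were assigned, their median width was 1013.5 bp and 13.2% held TGGGAA in the central 200 bp. With peaks of at least 500 bp the values were 6 ligands (30%, against 36.2%), 46 peaks, 1129 bp and 10.9%. With domains extended by at most 100 kb, 8 ligands had a peak (40%, against 45%), a count that stayed within the factor of 1.5. Searching GTGGGAA gave 14.3%, and searching the whole peak gave 66.2%. These settings by construction use less sequence, fewer peaks, a longer motif or a longer window. Without chromosomes 4 and 7, 11 of 16 ligands had a peak (68.8%, against 55.3% of all genes).

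Genes with a peak ranged from 29 to 38 of 55, feedback genes from 11 to 12 of 15 and genes with a promoter peak from 18 to 28. In each of these settings with a background computed, the share was higher among the 55 genes than among all genes, with 52.7% against 36.5% under the basal domain. Settings with principal or RefSeq starts were chosen after the data were seen. With principal transcripts 37 genes had a peak (67.3%, against 47.6% of all genes), Dusp13 and Fgf20 having lost theirs and Dusp27 having gained one. With these starts 8 genes (14.5%) had 3 or more peaks, against 8.07% of all genes. Leaving out either replicate changed none of these values, since either list alone holds every peak. No paired analysis was possible because a single shared list leaves nothing to pair. Depth is unknown, so weak binding below the calling limits cannot be assessed.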
